A study of Rattus norvegicus with 18 samples.

Results

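RNA-seq values were described for germline tudor genes and DNA methylation enzymes in Rat1 fibroblasts, a rat cell line. Of the 10 genes listed for this purpose, 8 were in the expression table of 13188 genes: Rnf17, Tdrd1, Tdrd3, Tdrd7, Dnmt1, Uhrf1, Dnmt3a and Dnmt3b. Tet2 and Tet3 were not analysed here. Rnf17 and Tdrd1 were selected on their log2FC, a large rise with MYC in these same libraries, so their MYC values are a description with no test, while the other 6 genes were chosen for their role in DNA methylation or in the tudor family and were tested.

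All libraries came from the HO15.19 line, labelled myc-/- for the loss of rat myc, grown in 10% serum. The 18 libraries made 6 groups of 3. The line without MYC (myc-/-) and the line with human MYC put back (myc-/- + MYC) were each taken both untransfected and after a nontargeting siRNA (siCtrl), and the line with MYC also after 1 of 2 siRNAs (siAHR-2 or siAHR-5) against AHR, the aryl hydrocarbon receptor. siRNA was used at 40 nM and cells were harvested 48 h after transfection. Human MYC was expressed from the retroviral vector pBabe in stable lines, so the MYC groups carry MYC from a foreign promoter in place of the endogenous gene. The labels do not state that the 3 libraries of a group came from separate cultures, so p-values measure only the spread between these libraries.

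The deposited values are normalized expression on a log2 scale and fall into 2 sets on different scales, which the leading principal component separated with 74.7% of the variance. The 6-library set holds myc-/- siCtrl and myc-/- + MYC, and the 12-library set holds untransfected myc-/- and the 3 siRNA groups of myc-/- + MYC, which are siCtrl, siAHR-2 and siAHR-5. Groups were compared only within a set. For the effect of MYC, the 6-library set gives untransfected myc-/- + MYC over myc-/- siCtrl, and the 12-library set gives myc-/- + MYC siCtrl over untransfected myc-/-. Transfection and MYC thus differ at once and cannot be told apart within either comparison, but the transfected group is the one without MYC in the 6-library set and the one with MYC in the 12-library set. If the labels of the 2 myc-/- groups were exchanged, MYC would be the only labelled difference in both comparisons, which was not settled here. A gene passed when its fold was at least 1.5 (log2FC of 0.585) and its limma adjusted p at most 0.01. Values are not corrected for gene length, so levels are compared between groups and not between genes. In bulk libraries, more expression per cell and more expressing cells cannot be told apart either.

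Rat Myc, the gene knocked out in the line, still gave signal in every library, from 9.16 to 9.47 in myc-/- siCtrl, 8.01 to 8.08 in myc-/- + MYC, 10.82 to 10.94 in myc-/- and 8.16 to 8.53 over the 3 groups with MYC and siRNA. Ahr was lower with siAHR-2 (log2FC −1.29, limma adjusted p = 2.37e-04) and with siAHR-5 (log2FC −1.39, limma adjusted p = 2.16e-04). Of 12 fibroblast markers, 11 were in the table, and Col1a2 was low, from 3.64 to 4.13 over all libraries. Of these 11, 5 passed lower with MYC in both sets, Col1a1 (log2FC −1.73 and −5.95), Pdgfrb (−1.72 and −3.08), Fn1 (−1.76 and −1.80), Thy1 (−1.15 and −2.20) and Lum (−1.16 and −0.95), while Col3a1 passed higher in the 6-library set (1.30) and Pdgfra and Dcn lower in the 12-library set (−0.61 and −0.90), Pdgfra not after quantile normalization or median centring. By set, 1 of the 11 passed higher and 5 lower in the 6-library set, and 0 and 7 in the 12-library set. The medians of the 11 were −0.33 and −0.90. Over all genes, 12.5% passed higher and 14.3% lower in the 6-library set, and 10.8% and 14.7% in the 12-library set. In the table were 5 epithelial, 6 leukocyte and 5 endothelial markers. Those that passed in the same direction in both sets were the epithelial Krt8 (log2FC 1.70 and 1.17), the leukocyte Cd3e (−2.09 and −1.13) and the endothelial Vwf (−1.89 and −3.06). Cldn4 (−0.84) and Tek (1.61) passed in the 6-library set. Lum, Col3a1, Pdgfra, Dcn, Cldn4 and Tek are named after their values were seen. The part of these changes in the results for the genes studied was not tested.

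Tudor domains bind methylated arginine and lysine residues. In the germ line, tudor proteins gather Piwi proteins and their small piRNAs in cytoplasmic granules, where transposon transcripts are cut and from which DNA methylation of transposons in male germ cells is guided. DNA methylation is set by Dnmt3a and Dnmt3b, copied at replication by Dnmt1, which Uhrf1 brings to hemimethylated sites, and in somatic cells it helps keep germline genes silent. MYC binds DNA with MAX at the E-box CACGTG and, less tightly, at variants such as CACGCG.

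Promoter windows from 250 bases before to 50 after a start site were taken from RefSeq (assembly GRCr8), matched by symbol, for 5 of the 8 genes. Those of Tdrd1 and Dnmt3a are shown because both genes were higher with MYC in both sets and both windows hold CACGTG. Capitals mark CACGTG and CACGCG, the latter also as CGCGTG on the other strand. The window of Tdrd1 is chr1:265880775-265881074 and that of Dnmt3a is chr6:32598352-32598651, both on the plus strand, written 5′ to 3′.
Tdrd1: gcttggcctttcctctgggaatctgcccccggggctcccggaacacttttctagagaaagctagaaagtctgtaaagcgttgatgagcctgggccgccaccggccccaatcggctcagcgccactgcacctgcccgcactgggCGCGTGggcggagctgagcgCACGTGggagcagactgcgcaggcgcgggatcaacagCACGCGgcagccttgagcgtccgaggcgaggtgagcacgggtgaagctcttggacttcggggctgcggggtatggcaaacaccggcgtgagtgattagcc
Dnmt3a: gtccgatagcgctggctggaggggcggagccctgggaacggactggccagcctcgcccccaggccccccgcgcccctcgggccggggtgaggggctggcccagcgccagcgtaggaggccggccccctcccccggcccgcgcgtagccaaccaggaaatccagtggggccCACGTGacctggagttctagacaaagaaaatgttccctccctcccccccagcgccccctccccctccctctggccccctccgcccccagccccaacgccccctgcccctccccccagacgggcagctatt
Tdrd1 holds CACGTG 87 bases and CACGCG 50 bases upstream of the start site, and CACGCG on the other strand 107 bases upstream, with no overlap between them. Dnmt3a holds CACGTG 80 bases upstream. Searching both strands of all 33469 windows of this length found CACGTG in 6.42%, CACGCG in 8.5% and both in 1.06%. These shares are no test for Tdrd1 and Dnmt3a, whose windows are shown because they hold CACGTG. Nor are they matched for the number of CG dinucleotides. Tdrd1 has 26 CG dinucleotides, more than 84.8% of windows, and Dnmt3a 21, more than 77.4%, where the median window has 7. Of the other genes, Tdrd7 holds 2 copies of CACGCG, Dnmt1 holds neither, and of the 3 windows of Uhrf1 only 1 holds CACGCG, in 2 copies. TTCCCGC, a core of the E2F site found in 4.21% of windows, is in 2 of the 3 windows of Uhrf1 and in none of the others. No windows were given here for Rnf17, Tdrd3 and Dnmt3b. A match describes the letters of a window and is not a measured binding site.

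Rnf17 and Tdrd1, the members picked for their rise with MYC, had among the highest log2FC in the table. Rnf17 codes for a germ cell tudor protein needed for spermatid development. In the 6-library set, Rnf17 was at 6.58, 6.66 and 6.73 in myc-/- siCtrl and at 11.52, 11.53 and 11.57 in myc-/- + MYC, a log2FC of 4.89 or a 29.6-fold difference. In the 12-library set it was at 9.44, 9.44 and 9.45 in myc-/- and at 13.77, 13.77 and 13.88 in myc-/- + MYC siCtrl, a log2FC of 4.36 or 20.6-fold. The groups lay far apart in both sets, and the whole spread within a group was a small part of the gap. By log2FC, Rnf17 ranked 6 in the 6-library set and 2 in the 12-library set among 13188 genes.

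Tdrd1 codes for a tudor protein that binds Piwi proteins in germ cell granules. It was at 6.77, 6.91 and 6.95 in myc-/- siCtrl and at 11.69, 11.84 and 11.86 in myc-/- + MYC, a log2FC of 4.92 or 30.3-fold. It was at 9.77, 9.81 and 9.84 in myc-/- of the 12-library set and at 14.19, 14.22 and 14.24 in myc-/- + MYC siCtrl, a log2FC of 4.41 or 21.3-fold. The pattern was that of Rnf17, with no overlap between groups. Tdrd1 ranked 4 and 1 by log2FC.

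**Figure D1:**
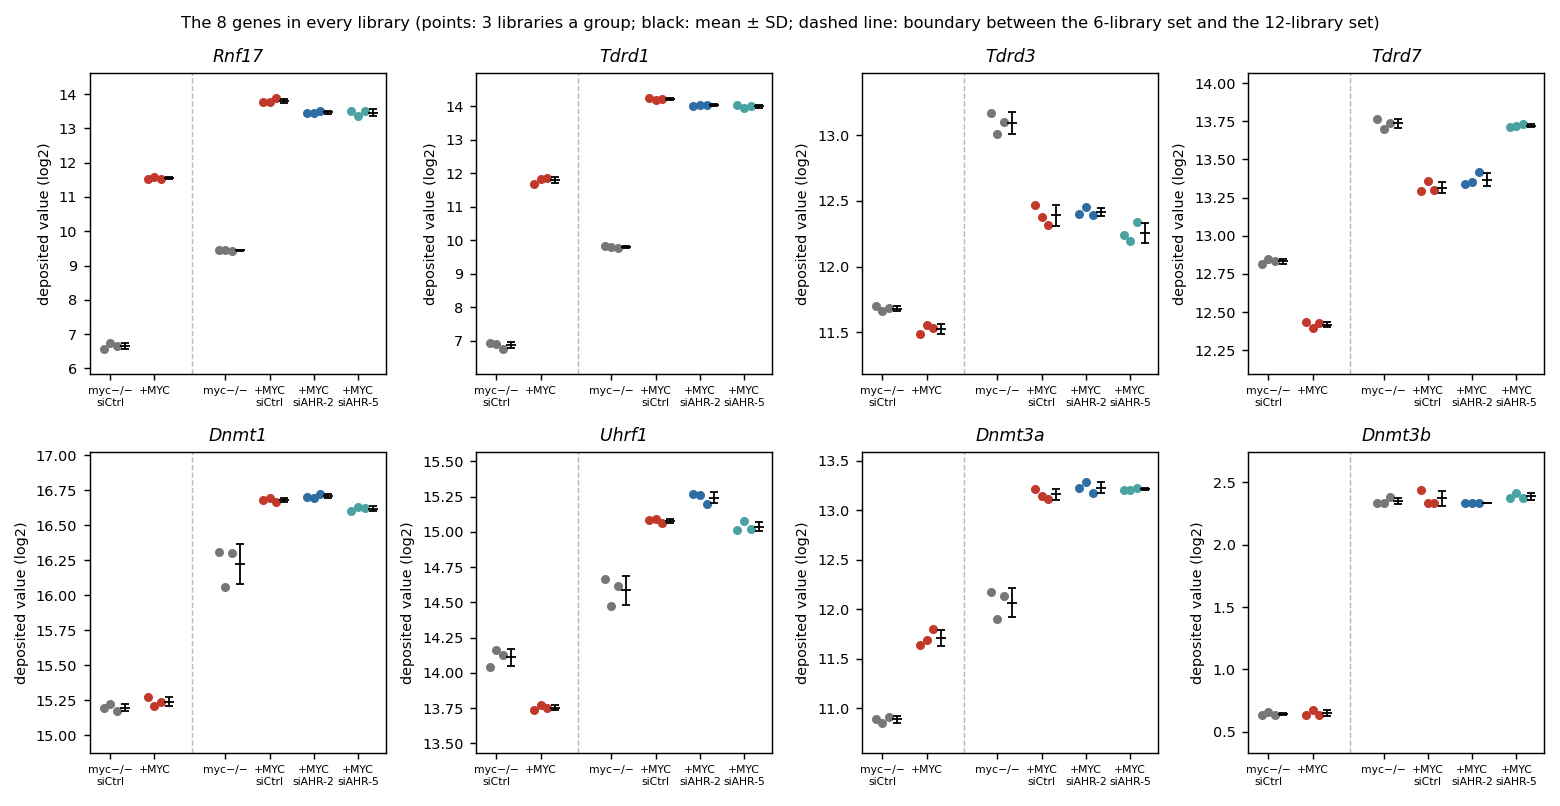
Deposited log2 value (y axis) of each of the 8 genes in every library, by group (x axis), with 3 points a group and the mean ± SD in black. The dashed line parts the 6-library set from the 12-library set, whose scales differ. Rnf17 and Tdrd1 stand lowest in the myc-/- group of each set, and Dnmt3b stays between 2.34 and 2.44 in the 12-library set.

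With siRNA against AHR, Rnf17 and Tdrd1 stayed near their level in MYC cells. Rnf17 was at 13.44, 13.44 and 13.52 with siAHR-2 and at 13.35, 13.51 and 13.52 with siAHR-5, log2FC of −0.34 and −0.35 against siCtrl. Tdrd1 was at 14.00, 14.05 and 14.05 with siAHR-2 and at 13.95, 14.01 and 14.03 with siAHR-5, log2FC of −0.18 and −0.22. For both genes all 6 siAHR libraries lay below all 3 siCtrl libraries and far above myc-/-, and the differences from siCtrl are under the fold cutoff. Both siAHR comparisons share the siCtrl libraries, which also entered the choice of these genes, so they are given with no test. The order of the groups in the 12-library set was the same for both genes, with siCtrl highest, the 2 siAHR groups next and overlapping each other, and myc-/- lowest. Between the siRNAs, which the choice did not use, Rnf17 differed by −0.0039 in log2FC for siAHR-5 against siAHR-2 (95% interval −0.13 to 0.13, limma adjusted p = 0.999) and Tdrd1 by −0.036 (95% interval −0.11 to 0.03, limma adjusted p = 0.381).

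The genes with the pattern most like Rnf17 over the 18 libraries, after subtracting each gene's mean in its set, were Tdrd1 (Pearson r = 0.9992), Sgsm1 (0.9973) and Ddx3 (0.9973), among 10715 genes with a mean of at least 5. For Tdrd1 they were Rnf17, Ddx3 (0.9983) and Crym (0.9981). These libraries share the step from myc-/- to MYC, which carries the correlation. Once each group's own mean was subtracted, r between Rnf17 and Tdrd1 was 0.2227.

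Of 12 genes on a list of Y-linked genes, 3 were in the table, and Eif2s3y and Ddx3 passed higher with MYC in both sets. Over all genes, 12.5% passed higher in the 6-library set and 10.8% in the 12-library set. Eif2s3y, which codes for a translation initiation subunit, had a log2FC of 4.50 in the 6-library set (limma adjusted p = 1.81e-13) and 4.28 in the 12-library set (limma adjusted p = 1.40e-07). Ddx3 had 5.02 and 4.27 (limma adjusted p = 4.49e-13 and 6.82e-08), while Ddx3y, the gene of a Y-linked helicase, was at 1.19 to 1.53 in every library. In RefSeq (GRCr8), Ddx3 is the symbol of a gene that is not placed on the Y chromosome and also a synonym of Ddx3y, so which locus its reads come from is uncertain, and Eif2s3y is the only gene of the 3 that is both placed there and higher. The summed level of the 3 genes, as log2 of the sum off the log scale, was 7.18 to 7.30 in myc-/- siCtrl, 11.98 to 12.06 in myc-/- + MYC, 10.21 to 10.24 in myc-/- and 14.42 to 14.54 in myc-/- + MYC siCtrl. With siAHR-5, Eif2s3y was lower than with siCtrl (log2FC −0.65, limma adjusted p = 9.72e-04), while Ddx3 was at 0.11. The part of these genes in the result was not tested.

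**Figure D2:**
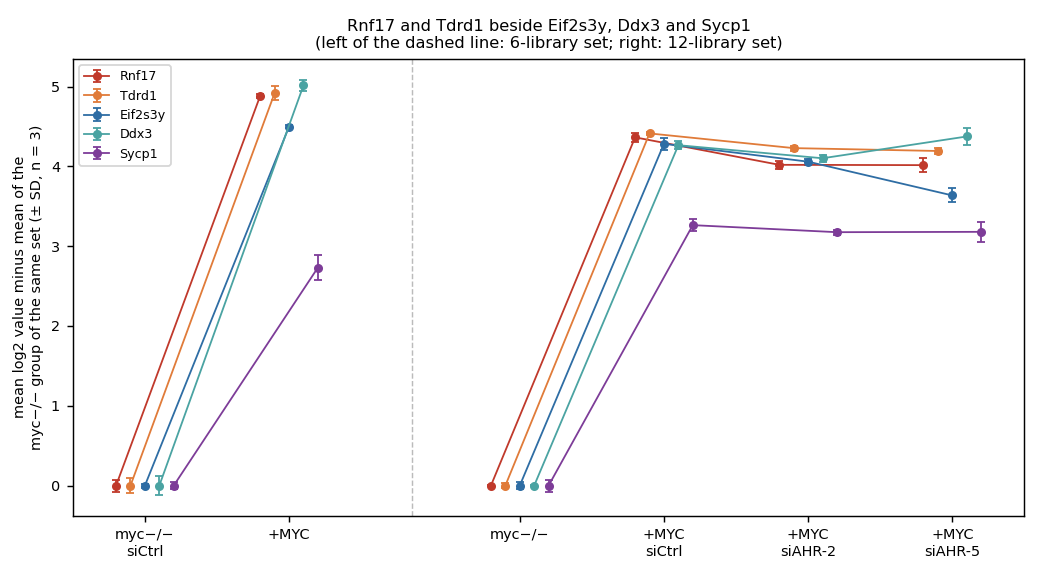
Mean log2 value of 5 genes minus their mean in the myc-/- group of the same set (y axis), by group (x axis), with bars of ± SD over 3 libraries. Rnf17, Tdrd1, Eif2s3y and Ddx3 rise by 4.27 to 5.02 with MYC in both sets, and Sycp1 by 2.73 and 3.26.

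Of 23 other piRNA pathway and germline tudor genes on the list, 14 were in the table. In the 6-library set, 1 passed higher and 2 lower, and in the 12-library set, 2 higher and 1 lower, with medians of −0.04 and 0.01. Over all genes, 12.5% passed higher and 14.3% lower in the 6-library set, and 10.8% passed higher and 14.7% lower in the 12-library set, with medians of −0.0038 and −1.40e-04, so that the counts of this list are near those shares. Exd1, a partner in piRNA production, was higher in both sets (log2FC 1.07 and 0.82, limma adjusted p = 5.97e-09 and 2.04e-04). Piwil2, a Piwi protein, was at 12.16, 12.20 and 12.22 in myc-/- siCtrl and at 10.96, 10.98 and 10.99 in myc-/- + MYC. It was lower in both sets (log2FC −1.22 and −0.59, limma adjusted p = 9.83e-11 and 1.88e-04), and its fall in the 12-library set lies at the fold cutoff and did not pass after quantile normalization or median centring. In the test of the difference between the MYC effects, 3 of the 14 genes passed higher and 0 lower, beside 6.79% and 9.67% of all genes, Tdrkh, Piwil4 and Piwil2 (0.63, limma adjusted p = 1.16e-06).

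The other genes of this list that passed are named after their values were seen. Tdrkh, a tudor protein of piRNA trimming, was at 7.70, 7.74 and 7.75 in myc-/- and at 10.68, 10.71 and 10.77 in myc-/- + MYC siCtrl (log2FC 2.99, limma adjusted p = 2.51e-07). In the 6-library set, Tdrkh lay low and moved by 0.34, and the difference between the MYC effects was 2.65 (limma adjusted p = 3.99e-13). Piwil4, the Piwi protein that reaches the nucleus, was lower with MYC in the 6-library set (log2FC −0.87, limma adjusted p = 3.29e-07). In the 12-library set Piwil4 did not pass (log2FC 0.28, limma adjusted p = 0.0315), and the difference between the MYC effects was 1.15 (limma adjusted p = 6.67e-07).

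Most meiosis and germ cell genes did not pass. Of 33 on the list, 18 were in the table, and 3 passed higher and 2 lower in the 6-library set, against 2 and 2 in the 12-library set, near the shares of all genes (12.5% and 14.3%, and 10.8% and 14.7%), with medians of −0.0048 and −4.42e-04. Sycp1, a protein of the synaptonemal complex that joins paired chromosomes, had a log2FC of 2.73 and 3.26 (limma adjusted p = 7.00e-11 and 4.57e-07). Stag3, a meiotic cohesin, had 1.16 and 1.67. Taf7l, a germ cell transcription factor subunit, was lower by −1.32 and −2.11, and Tex101, a germ cell surface protein, by −1.60 and −0.99. Syce2, named after its values were seen, passed in the 6-library set (log2FC 0.59), though not after median centring (0.55), and was at 0.12 in the 12-library set.

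Defining germ cell markers stayed low. Of 10, the 5 in the table were Ddx4, Dazl, Sycp3, Piwil1 and Zp3. None was listed at 0, but whether the low values reflect detected reads is unknown. Dazl, for example, lay at 3.80 in every library of the 12-library set. Sycp3 was the highest, between 6.03 and 6.88 over all libraries, and the other 4 were below 5 in every library. With limma, 0 of the 5 passed in any comparison, and at an unadjusted p under 0.05 there was 1 in the 6-library set, 2 with siAHR-2 and 0 in the other 4 comparisons. Over all genes, the shares with an unadjusted p under 0.05 ran from 40.4% to 77.5% across the 6 comparisons. The shares that passed higher or lower ran from 0.159% to 14.7%. The summed level of the 5 markers, as log2 of the sum off the log scale, was 6.79 to 6.88 in myc-/- siCtrl and 6.83 to 6.92 in myc-/- + MYC. In the 12-library set it was 7.16 to 7.20 in myc-/-, 7.18 to 7.32 with siCtrl, 7.22 to 7.28 with siAHR-2 and 7.19 to 7.29 with siAHR-5.

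**Figure D3:**
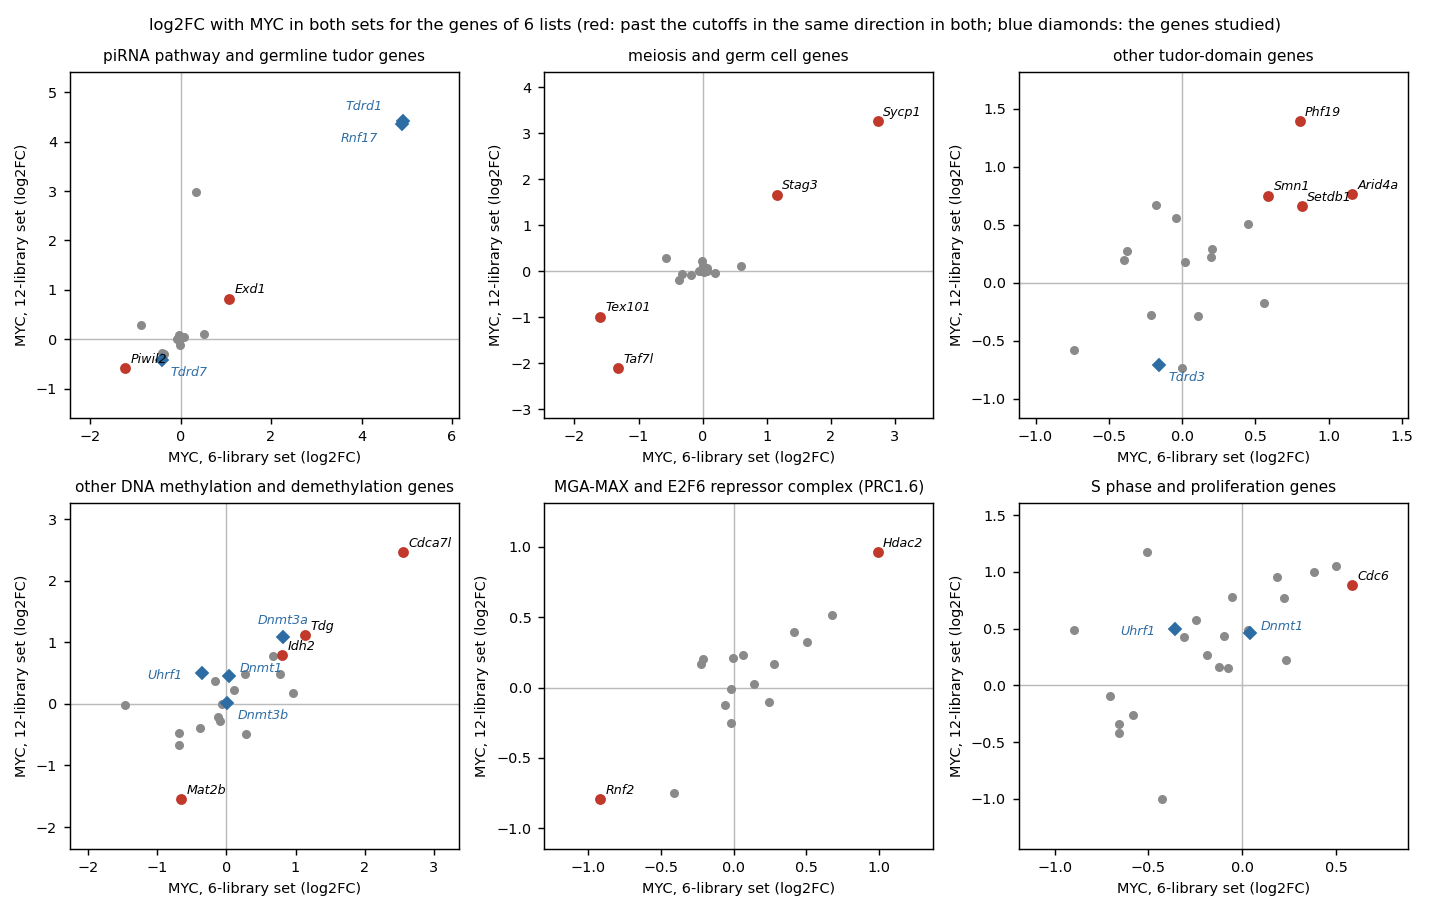
log2FC with MYC in the 6-library set (x axis) and in the 12-library set (y axis), 1 panel for each of 6 gene lists and 1 point a gene. Red points passed both cutoffs in the same direction in both sets, and blue diamonds are the genes studied. Rnf17 and Tdrd1 lie at 4.89 and 4.92 in the 6-library set and at 4.36 and 4.41 in the 12-library set, away from the other piRNA pathway genes, and Dnmt3a lies at 0.82 and 1.09.

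Of the tested members, 1 of 6 passed in the 6-library set, Dnmt3a higher, and 2 of 6 in the 12-library set, Dnmt3a higher and Tdrd3 lower. These shares stand beside the 12.5% and 14.3% of all genes that passed higher and lower in the 6-library set, and 10.8% and 14.7% in the 12-library set.

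Dnmt3a, a de novo methyltransferase, was the only tested member that passed in both sets. It was at 10.86, 10.90 and 10.92 in myc-/- siCtrl and at 11.64, 11.69 and 11.80 in myc-/- + MYC (log2FC 0.82, SE 0.0482, limma adjusted p = 2.83e-08). The 12-library set had it at 11.90, 12.13 and 12.17 in myc-/- and at 13.12, 13.14 and 13.22 in myc-/- + MYC siCtrl (log2FC 1.09, SE 0.0784, limma adjusted p = 6.12e-05). The MYC libraries lay above the others in both sets with no overlap. The difference between the effects was 0.27 (limma adjusted p = 0.0227), which did not pass. Dnmt3b, the other de novo enzyme, lay low in all groups, between 0.63 and 0.68 in the 6-library set and between 2.34 and 2.44 in the 12-library set. Its groups overlapped, with log2FC of 0.01 and 0.02 (limma adjusted p = 0.674 and 0.604).

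Dnmt1, the maintenance methyltransferase, overlapped between groups in the 6-library set, at 15.17, 15.19 and 15.22 in myc-/- siCtrl and at 15.21, 15.23 and 15.27 in myc-/- + MYC (log2FC 0.04, 95% interval −0.02 to 0.10, limma adjusted p = 0.203). After quantile normalization this difference was 0.26 (limma adjusted p = 9.23e-06), still under the fold cutoff. Over the 12-library set it was at 16.06, 16.30 and 16.31 in myc-/- and at 16.67, 16.68 and 16.70 in myc-/- + MYC siCtrl (log2FC 0.46, SE 0.0728, limma adjusted p = 0.00195). All MYC libraries of the 12-library set were higher, but the difference is under the fold cutoff. After quantile normalization it was 0.64 and passed. The myc-/- library at 16.06, replicate 2, lies apart from the other two, and without it the difference was 0.38 (limma adjusted p = 5.31e-05).

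Uhrf1, the partner that brings Dnmt1 to newly copied DNA, differed between the sets. It was at 14.04, 14.12 and 14.16 in myc-/- siCtrl and at 13.73, 13.75 and 13.77 in myc-/- + MYC, lower in all MYC libraries (log2FC −0.36, SE 0.0345, limma adjusted p = 2.06e-06). Values in the 12-library set were 14.47, 14.62 and 14.67 in myc-/- and at 15.06, 15.08 and 15.09 in myc-/- + MYC siCtrl, higher in all MYC libraries (log2FC 0.49, SE 0.0533, limma adjusted p = 3.52e-04). Each change is under the fold cutoff, and after quantile normalization the fall in the 6-library set was −0.16 (limma adjusted p = 0.000851) and the rise in the 12-library set was 0.66 and passed. The effect in the 12-library set minus that in the 6-library set was 0.85 (SE 0.0660, limma adjusted p = 4.81e-08), which passed. Of the tested members, 1 of 6 passed this test of the difference, where 6.79% of all genes passed higher and 9.67% lower. The sets were scaled apart and carry opposite transfection labels, so differences in scale, in transfection and in cells cannot be told apart.

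Of 21 genes of S phase and proliferation, all in the table, 1 passed higher and 4 lower in the 6-library set, and 7 higher and 1 lower in the 12-library set, beside the 12.5%, 14.3%, 10.8% and 14.7% of all genes. Their median log2FC was −0.13 and 0.44, and that of the 6-library set was 0.09 after quantile normalization. In the test of the difference 8 passed higher and 0 lower, beside 6.79% and 9.67% of all genes, with a median of 0.53, led by Rrm2 (1.68) and Tyms (1.38), which make deoxynucleotides. The genes lower in the 6-library set were Ccne2 (log2FC −0.66), Rrm1 (−0.71), Tyms (−0.90) and E2f1 (−0.66), and the gene lower in the 12-library set was Ccne1 (−1.0), all named, as Rrm2, after their values were seen. Cdc6, which loads the replicative helicase, was higher in both sets (log2FC 0.59 and 0.88), but in the 6-library set it did not pass after median centring (0.54), nor did Rrm1 after quantile normalization (−0.49). The summed level of the list, as log2 of the sum off the log scale, was 18.64 to 18.69 in myc-/- siCtrl and 18.51 to 18.53 in myc-/- + MYC, against 19.37 to 19.48 in myc-/- and 19.86 to 19.87 in myc-/- + MYC siCtrl. The part of proliferation in the values of Dnmt1 and Uhrf1 was not tested. Over the 18 libraries and after subtracting set means, the genes most like Uhrf1 were Aspm (r = 0.9592), Smyd3 (0.9521) and Mmaa (0.9489), and those most like Dnmt1 were Pole (0.9745), Napb (0.9734) and Dync2h1 (0.9707).

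Tdrd3 and Tdrd7 had lower values with MYC in both sets. Tdrd3, a tudor protein that works with topoisomerase 3-beta, was at 11.66, 11.68 and 11.70 in myc-/- siCtrl and at 11.49, 11.53 and 11.56 in myc-/- + MYC (log2FC −0.16, limma adjusted p = 0.00276, under the fold cutoff). Within the 12-library set it was at 13.01, 13.10 and 13.17 in myc-/- and at 12.32, 12.38 and 12.47 in myc-/- + MYC siCtrl (log2FC −0.70, SE 0.0590, limma adjusted p = 1.18e-04), which passed. The MYC libraries were the lower in both sets. The difference between the effects was −0.55 (limma adjusted p = 1.10e-05), under the fold cutoff. It passed when myc-/- + MYC siCtrl replicate 1 or myc-/- replicate 2 was left out, at −0.59 in both cases.

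Tdrd7, a tudor protein of germ cell granules that is also made in the lens, had nearly the same difference in both sets. It was at 12.81, 12.84 and 12.85 in myc-/- siCtrl and at 12.40, 12.43 and 12.43 in myc-/- + MYC (log2FC −0.41, limma adjusted p = 2.22e-07). Its 12-library set values were 13.70, 13.74 and 13.76 in myc-/- and at 13.29, 13.30 and 13.36 in myc-/- + MYC siCtrl (log2FC −0.42, limma adjusted p = 6.98e-05). No libraries overlapped, and both changes are under the fold cutoff. The difference between the effects was −0.01 (95% interval −0.11 to 0.10, limma adjusted p = 0.914).

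**Figure D4:**
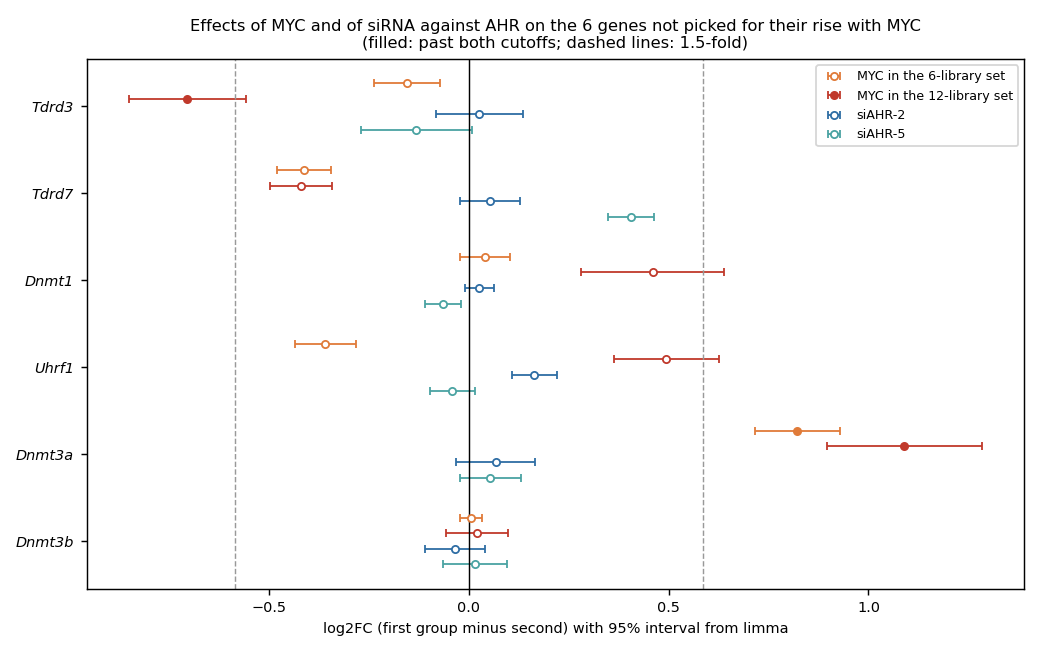
log2FC (x axis) with its 95% interval for the 6 tested genes (y axis) under MYC in each set and under each siRNA against AHR, with filled points where both cutoffs were passed and dashed lines at the fold cutoff of 1.5. Dnmt3a at 0.82 and 1.09 and Tdrd3 at −0.70 are the filled points.

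With siRNA against AHR, 0 of the 6 tested members passed for either siRNA by limma, where 0.159% of all genes passed higher and 0.311% lower with siAHR-2, and 1.48% higher and 0.849% lower with siAHR-5. At an unadjusted p under 0.05 there were 1 with siAHR-2 and 2 with siAHR-5, where 40.4% and 47.8% of all genes had one. With siAHR-2, Uhrf1 was at 15.20, 15.26 and 15.27, above all siCtrl libraries (log2FC 0.16, 95% interval 0.11 to 0.22, limma adjusted p = 0.00494). With siAHR-5, Uhrf1 was at 15.02, 15.02 and 15.08 and overlapped siCtrl (log2FC −0.04, limma adjusted p = 0.209). Tdrd7 had the opposite order of the siRNAs. It was at 13.34, 13.35 and 13.42 with siAHR-2, overlapping siCtrl (log2FC 0.05, limma adjusted p = 0.253), and at 13.72, 13.72 and 13.73 with siAHR-5 (log2FC 0.41, 95% interval 0.35 to 0.46, limma adjusted p = 3.42e-04), within the range of myc-/- cells.

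Dnmt1 was at 16.70, 16.70 and 16.72 with siAHR-2 and at 16.60, 16.62 and 16.63 with siAHR-5 (log2FC 0.03 and −0.06, limma adjusted p = 0.237 and 0.0365). Dnmt3a did not come down towards its myc-/- level with either siRNA, at 13.18, 13.22 and 13.29 with siAHR-2 and 13.20, 13.21 and 13.23 with siAHR-5 (log2FC 0.07, 95% interval −0.03 to 0.17, and 0.05, −0.02 to 0.13). Tdrd3 was at 12.39, 12.40 and 12.45 with siAHR-2 and at 12.19, 12.24 and 12.34 with siAHR-5 (log2FC 0.03 and −0.13, limma adjusted p = 0.71 and 0.119). Dnmt3b had log2FC of −0.03 and 0.02. Median centring or quantile normalization turned the sign of some of these small values, as given under the processing.

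Set directly against each other, siAHR-5 and siAHR-2 left 0 of 8 members past both cutoffs by limma, where 1.33% of all genes passed higher and 0.849% lower, and 5 of 8 had an unadjusted p under 0.05, as had 46.8% of all genes. Among these 5 was Dnmt3b, which lay low in all groups and was at 2.34 in every siAHR-2 library. It differed by 0.05 (limma adjusted p = 0.0259). Tdrd7 was higher with siAHR-5 than with siAHR-2 (log2FC 0.35, 95% interval 0.29 to 0.42, limma adjusted p = 3.72e-04). Uhrf1 was lower with siAHR-5 (log2FC −0.21, 95% interval −0.27 to −0.14, limma adjusted p = 0.00261), as was Dnmt1 (log2FC −0.09, limma adjusted p = 0.00538, and −0.014 with 0.645 after quantile normalization). Of the 21 S phase genes, 0 passed higher and 1 lower, with a median of −0.14. The gene that passed was Pcna, the replication clamp (log2FC −1.0, limma adjusted p = 5.44e-05), while Ccne1 was at 0.54, both named after their values were seen. Of the 11 fibroblast markers, 2 passed higher and 0 lower, Thy1 (log2FC 0.67) and Pdgfrb, also named after their values were seen. With siAHR-5 against siCtrl, 1 of the 11 passed higher, Thy1 (log2FC 0.75), and 0 lower, beside 1.48% and 0.849% of all genes. The part of these genes in the result was not tested. Ahr itself differed by −0.11 between the siRNAs (limma adjusted p = 0.211).

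Of 20 further genes that write, erase or supply DNA methylation, 18 were in the table, and 6 passed higher and 4 lower in the 6-library set, against 4 and 2 in the 12-library set, beside 12.5% and 14.3%, and 10.8% and 14.7%, of all genes, with medians of 0.02 and 0.09. Cdca7l, a relative of the Cdca7 protein that helps maintain methylation, rose most (log2FC 2.56 and 2.46, limma adjusted p = 1.50e-11 and 1.00e-06). Tdg, the glycosylase that removes oxidized methylcytosine, was higher (1.14 and 1.11), as was Idh2, a source of the α-ketoglutarate that Tet enzymes use (0.81 and 0.79). Mat2b, a subunit of S-adenosylmethionine synthetase, was lower (−0.66 and −1.55), though in the 6-library set it did not pass after quantile normalization (−0.48). The following are named after their values were seen. Smug1, a uracil glycosylase, was higher (0.67 and 0.77) and Gadd45g lower (−0.68 and −0.67) in both sets, Trdmt1 (0.78) and Neil1 (0.96) passed higher and Gadd45a lower (−0.68) in the 6-library set. Dnmt3l, the cofactor of Dnmt3a in germ cells, was at 7.20, 7.28 and 7.40 in myc-/- siCtrl and at 5.80, 5.83 and 5.87 in myc-/- + MYC (log2FC −1.46, limma adjusted p = 1.75e-09). In the 12-library set Dnmt3l lay low, between 3.38 and 3.51 in every library, and whether a fall could show there is unknown. The difference between the MYC effects was 1.44 (limma adjusted p = 3.04e-10), nearly the size of the fall in the 6-library set alone. In that test, 1 of the 18 genes passed higher and 3 lower, down to −0.89, beside 6.79% and 9.67% of all genes. With siAHR-5, 1 of these 18 genes passed higher and 1 lower, beside 1.48% and 0.849% of all genes, Gadd45b (log2FC 0.60) and Smug1 (log2FC −0.64), against 0 higher and 2 lower after median centring.

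Among methyl-CpG readers, Zfp57 was higher in the 6-library set (log2FC 0.77) and Mbd6 in the 12-library set (log2FC 0.63), both named after their values were seen. Of 19 other tudor-domain genes, 17 were in the table, and 4 passed higher and 1 lower in the 6-library set, against 5 and 1 in the 12-library set, with medians of 0.11 and 0.28. Those higher in both sets were Phf19, a Polycomb partner (log2FC 0.80 and 1.39), Arid4a, a retinoblastoma-binding protein (1.16 and 0.77), Setdb1, a histone H3 lysine 9 methyltransferase (0.82 and 0.66), and Smn1, which assembles splicing particles (0.59 and 0.75), although Smn1 did not pass in the 6-library set after median centring (0.55). The others that passed, named after their values were seen, were Phf20 (−0.74) in the 6-library set and Kdm4c (0.67) and Phf1 (−0.74) in the 12-library set.

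The complex of MGA-MAX and E2F6 with Polycomb proteins (PRC1.6) is known to silence germline genes in somatic cells. Of its 17 genes, 16 were in the table, and Mga itself was not among these 16. In the 6-library set 2 passed higher and 1 lower, against 1 and 2 in the 12-library set. The histone deacetylase Hdac2 was higher in both sets (log2FC 0.99 and 0.96), and Rnf2, the Polycomb ubiquitin ligase, was lower in both (log2FC −0.92 and −0.79, limma adjusted p = 3.83e-10 and 1.28e-05). Tfdp2 (0.68 in the 6-library set) and Rybp (−0.75 in the 12-library set) also passed and are named after their values were seen. The median of the 16 genes was 0.03 and 0.17. The counts of this list and of the other tudor-domain genes stand beside 12.5% higher and 14.3% lower of all genes in the 6-library set, and 10.8% and 14.7% in the 12-library set.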

How the data were processed

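Per the labels, poly-A RNA was sequenced. Read quality was checked by the authors (NGS-QC-Toolkit), alignment was to rn6 by HISAT2 2.1.0, genes under 10 reads in total were dropped, and DESeq2 was used to normalize. The counter and annotation are not given in the sources used here. The authors deposited log2 values for 13188 genes, 1 column per library. They are labelled log CPM, but their sums off the log scale are far above what CPM allows and differ between libraries, so their transformation and the read depth are unknown, and the number of libraries limits the precision.

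Groups came from the labels. Fits used limma 3.58.1 in R 4.3.3 (lmFit, eBayes with trend) on the values as deposited, with the groups compared only and Benjamini-Hochberg adjustment over all genes. limma replaced the count model since the values are not counts. The cutoffs were those of the study's results. The fits were tested on simulated data. Replicate numbers did not pair libraries: same-numbered deviations correlated between −0.256 and 0.242. The genes studied and all lists were chosen with earlier results of these data known. From each list, up to 4 genes passing in the same direction in both MYC comparisons, ordered by size, are named. Promoters and figures used Python 3.11.15 and matplotlib 3.10.9. Alternatives were the cutoff, wider fits, no trend, quantile normalization, median centring, filters at a mean of 1 or 5, a pseudocount of 1, a replicate block and leaving out each library. The result for 1 gene is not reported here.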

Additional observations from a re-analysis of the deposited data

Results flagged for a closer look

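The effect of MYC on Uhrf1 differed between the sets by a test of the difference itself. Uhrf1 had a log2FC of −0.36 in the 6-library set and 0.49 in the 12-library set, and the effect in the 12-library set minus that in the 6-library set was 0.85 (SE 0.0660, limma adjusted p = 4.81e-08). All 3 MYC libraries lay below all 3 myc-/- siCtrl libraries in the 6-library set, and all 3 lay above all 3 myc-/- libraries in the 12-library set. Leaving out 1 library at a time gave differences from 0.80 to 0.89. The sets were scaled apart and carry opposite transfection labels, and these cannot be told apart from a difference in the effect of MYC.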

How the results depend on the processing

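Dnmt3a passed higher with MYC in both sets, and Tdrd3 lower in the 12-library set, under every alternative run, and the MYC effect on Uhrf1 differed between the sets under every one, by 0.80 to 0.94. Without the fold cutoff and at an adjusted p under 0.05, the genes that passed numbered 4 of 6 in the 6-library set, 5 of 6 in the 12-library set, 1 of 6 with siAHR-2, 2 of 6 with siAHR-5, 5 of 8 for siAHR-5 against siAHR-2 (the low Dnmt3b among them) and 4 of 6 for the difference of the MYC effects. Of all 13188 genes, 10051, 8538, 3860, 5169, 5151 and 7235 passed in the same order. Quantile normalization raised the number in the 12-library set to 4, adding Dnmt1 (0.64) and Uhrf1 (0.66). When 1 library at a time was left out, the number for the difference of the MYC effects ranged from 1 to 2, and the other numbers did not move. Tdrd3 was added without myc-/- + MYC siCtrl replicate 1 or without myc-/- replicate 2.

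Signs turned only for differences near 0 that had not passed. Under median centring these were Dnmt1 (−0.0012) and Dnmt3b (−0.037) in the 6-library set, Tdrd3 (−0.0041) and Dnmt1 (−0.0047) with siAHR-2, Dnmt3a (−0.0056) and Dnmt3b (−0.045) with siAHR-5, and the difference of the MYC effects on Tdrd7 (0.078). Under quantile normalization they were Dnmt1 (0.092) and Uhrf1 (0.0012) with siAHR-5 and the same difference for Tdrd7 (0.0029). With 1 library left out, Dnmt3b ranged from −0.0077 to 0.013 in the 6-library set, from −0.015 to 0.038 in the 12-library set, from −0.0024 to 0.050 with siAHR-5 and from −0.021 to 0.032 for the difference of the MYC effects. Tdrd3 with siAHR-2 ranged from −0.0084 to 0.069 and the difference for Tdrd7 from −0.027 to 0.0071. For siAHR-5 against siAHR-2, Rnf17 ranged from −0.033 to 0.049 and Dnmt3a from −0.039 to 0.016. The cause was not tested.

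The replicate block left the numbers of genes that passed at 1, 2, 0, 0, 0 and 1 in the 6 comparisons, while over all genes those with siAHR-2 went from 62 to 0. With MYC, 1653 of all genes passed higher and 1885 lower in the 6-library set, against 1799 and 1684 after quantile normalization. In the 12-library set these numbers were 1425 and 1936, against 1796 and 1661. With siAHR-5, 195 genes passed higher and 112 lower, against 127 and 126 after quantile normalization and 140 and 165 after median centring. With siAHR-2 these were 21 and 41, against 15 and 53 after median centring, and for the difference of the MYC effects 896 and 1275, against 1148 and 1036. In the S phase list, 7 genes passed higher in the 12-library set, against 11 after quantile normalization. The filter at a mean of 5 left out Dnmt3b, as did the filter at a mean of 1 in the 6-library set. Depth is unknown, so counting error cannot be given.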
